A study of Homo sapiens with 3 samples.

Results

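The genes described are 10 chemokine and inflammatory cytokine genes, CCL2, CCL20, CXCL1, CXCL2, CXCL3, IL8 (now called CXCL8), IL6, IL1A, IL1B and CSF1, among the 19076 gene entries of the deposited table. They were taken by symbol, and all 10 were found. The genes had been chosen by their differences between these same libraries, with the values of CCL2, CCL20, CXCL1, CSF1 and IL1A in view, so those differences are given as a description. The RNA came from MDA-MB-231, a basal-like human breast cancer cell line kept in DMEM with fetal bovine serum. The sample titles give all 3 groups a short hairpin RNA against KAP1, the corepressor encoded by TRIM28, and a KAP1 form, read here as re-expressed, that is wild-type (wt), S473A or S473D. S473A puts alanine, which cannot be phosphorylated, in place of a serine, and S473D puts aspartate there, a common imitation of a phosphorylated serine. Each form gave 1 library, and whether the lines were clones or pools is not given in the sources used here.

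Chemokines are small secreted proteins that direct the movement of leukocytes through G protein-coupled receptors. IL-1, IL-6 and CSF1 are cytokines that act on receptors of other families. Many of these genes are switched on by NF-kB, often together with AP-1 and C/EBP factors, and many of their messenger RNAs carry AU-rich elements that shorten their lifetime. MDA-MB-231 is known as a line that makes several of them without added stimulus.

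Values are RPKM, reads scaled to gene length and library depth, so levels can be compared between genes within a library. Differences between libraries were taken as log2(RPKM + 1), and low genes differ by more in RPKM than this scale shows. Depth was estimated at 25600000 reads (wt), 29200000 (S473A) and 23800000 (S473D). No group has a replicate, so no p-value is given and every difference describes a pair of libraries. Ratios of RPKM carry exact 95% intervals that cover counting error alone and rest on the estimated depths. In RNA from whole cultures, fewer cells that express a gene and less RNA per cell cannot be told apart. TRIM28 stood at 28.7, 32.3 and 25.6 RPKM in wt, S473A and S473D, which does not separate endogenous from re-expressed transcript. Markers of the line were high in all libraries, with the mesenchymal filament gene VIM between 673 and 740 RPKM, whereas the hormone receptor genes ESR1 and PGR reached at most 0.240 and 0.004 RPKM. Of the 7 genes listed as low in this line, however, 3 passed a mean of 1 RPKM (ERBB2, FOXA1 and GATA3), and the 7 summed to 11.9, 12.2 and 9.76 RPKM in wt, S473A and S473D. Of 13 leukocyte markers, 7 were in the table. CD68, a lysosomal protein gene that is not limited to leukocytes, made up nearly all of their summed level (50.6, 52.2 and 37.1 RPKM in wt, S473A and S473D). The pan-leukocyte gene PTPRC was at 0.026 RPKM in wt and listed at 0 in the other libraries. Summed over the markers in the table, fibroblast genes reached 1.93 to 1.96 RPKM and endothelial genes 0.986 to 1.05.

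The sequences just upstream of the genes show what the members share and where they differ. RefSeq entries in the GRCh38.p14 build matched 8 of the 10 genes, and CCL2 and CSF1 had none. The 150 bases before the annotated start were searched on both strands, with motifs picked after the sequences had been seen. These were the NF-kB consensus, the string GGAATTTCC, which overlaps that consensus when preceded by a G, the AP-1 string TGANTCA and the TATA string TATAAA. Shown first are the 4 members that encode ligands of the receptor CXCR2, which lie in 1 gene cluster on chromosome 4 yet had unlike values in S473D. The last is IL1A, whose level in S473D was 1.82-fold that in wt. Capitals mark matches to the NF-kB consensus, to GGAATTTCC or to TGANTCA.
CXCL1, chr4:73869243-73869392, plus strand: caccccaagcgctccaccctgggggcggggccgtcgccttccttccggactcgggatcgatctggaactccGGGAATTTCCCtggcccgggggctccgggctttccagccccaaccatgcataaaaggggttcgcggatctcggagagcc
CXCL2, chr4:74099196-74099345, minus strand: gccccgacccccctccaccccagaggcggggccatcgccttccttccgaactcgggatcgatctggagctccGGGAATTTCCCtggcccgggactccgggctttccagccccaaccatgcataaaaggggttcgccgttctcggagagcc
CXCL3, chr4:74038690-74038839, minus strand: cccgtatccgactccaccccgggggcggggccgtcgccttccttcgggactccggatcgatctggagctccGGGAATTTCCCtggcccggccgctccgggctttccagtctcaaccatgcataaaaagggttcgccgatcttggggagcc
IL8, chr4:73740419-73740568, plus strand: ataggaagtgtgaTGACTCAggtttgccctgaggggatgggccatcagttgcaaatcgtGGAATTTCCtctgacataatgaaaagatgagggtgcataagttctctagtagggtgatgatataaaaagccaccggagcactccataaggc
IL1A, chr2:112784494-112784643, minus strand: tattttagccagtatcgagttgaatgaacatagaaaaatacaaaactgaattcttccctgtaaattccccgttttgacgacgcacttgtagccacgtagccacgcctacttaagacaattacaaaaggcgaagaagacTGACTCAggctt

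CXCL1, CXCL2 and CXCL3 hold the same capitalised run, and their windows are 88.8% (CXCL1 and CXCL2), 88.1% (CXCL1 and CXCL3) and 86.3% (CXCL2 and CXCL3) identical in global alignment. IL8 holds the 9 shared letters GGAATTTCC, 91 to 83 bases before its start, and a TGANTCA match further upstream. IL1A has a TGANTCA match 12 to 6 bases before its start and none of the NF-kB strings. Of the windows not shown, those of IL6 and CCL20 each hold 1 NF-kB consensus match, IL6 with the letters GGGATTTTCC and CCL20 with GGGGTTTTCC on the opposite strand. None of the 4 motifs occurs in the IL1B window. In all, 5 of 8 windows hold the NF-kB consensus, against 6% of 27305 RefSeq windows of the same length, and 4 hold GGAATTTCC, against 0.26%. Both counts include the much alike CXCL1, CXCL2 and CXCL3 windows. Because the motifs were picked after these windows had been seen, the shares are a description and enrichment was not tested. TGANTCA occurs in 2, against 4.14%, and TATAAA in 2 (IL8 and CCL20), against 7.05%. A match describes letters, not a bound site, and these data hold no binding measurement.

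In wt the 10 genes ranged from 1.94 to 218 RPKM, and all passed the minimum mean of 1 RPKM over the 3 libraries. IL1B was the highest and IL8 the next in every library, and CCL20 was the lowest in every library. IL1B alone made up 61.1%, 62.1% and 63.7% of the summed RPKM of the 10 (wt, S473A, S473D). The positions between those ends differed by library. CXCL1 ranked 3 in wt and S473A, a place taken by IL1A in S473D. CCL2 ranked 7, 4 and 6 in wt, S473A and S473D, and CSF1 ranked 4 in wt and 8 in S473D. Summed RPKM of the 10 was 356 in wt, 333 in S473A and 445 in S473D. As a share of the RPKM of all genes, which also differed by library, the 10 made up 0.108%, 0.101% and 0.113%.

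**Figure D1:**
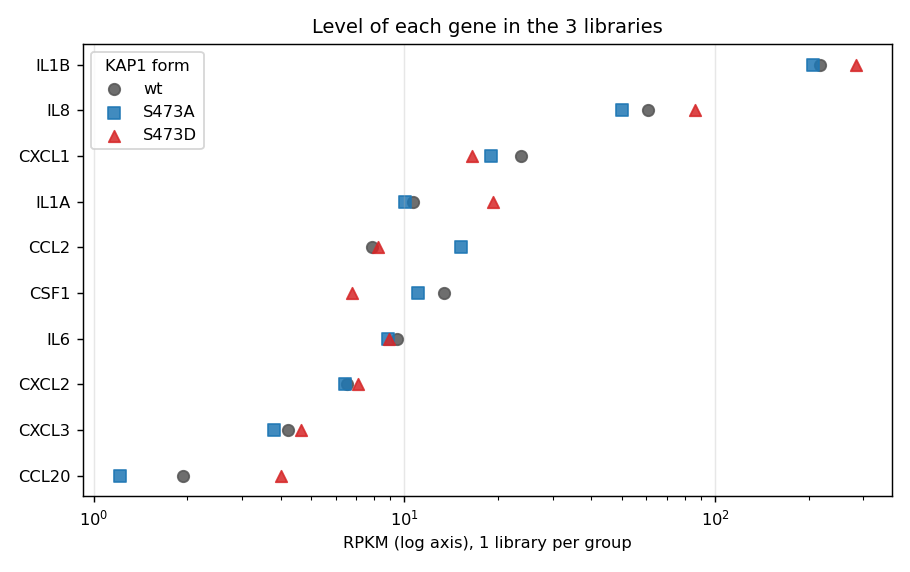
RPKM (log axis) of each of the 10 genes in the wt, S473A and S473D libraries, 1 point per library with no replicate error. IL1B and IL8 stand above the other 8 genes in every library, CCL2 is apart in S473A, and IL1A, CCL20 and CSF1 are apart in S473D.

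Between S473A and wt only CCL2 of the 10 was at least 1.5-fold apart, as were 0.242% of the 11579 genes tested in either direction and 0.095% in the direction of CCL2. At 2-fold the count was 0 of 10, beside 0.0173%. The other 9 were all below wt, as were 50.2% of all genes, and the median of the 10 was -0.11. For 5 of those 9 (CXCL2, CXCL3, IL6, IL1A and CCL20) the counting interval of the ratio included 1. For CXCL1, IL8, IL1B and CSF1 it did not.

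Between S473D and wt 3 of the 10 passed 1.5-fold, CCL20 and IL1A above wt and CSF1 below it, beside 10.1% of all genes, 6.82% above and 3.23% below. At 2-fold 0 of the 10 passed, beside 1.09%. CXCL1, IL6 and CSF1, 3 of the 10, were below wt, against 60.7% of all genes. The median of the 10 was 0.11 and that of all genes -0.10. Between S473D and S473A 5 of the 10 passed it, beside 9.85% of all genes. CCL20, IL8 and IL1A were higher in S473D (6.86% of all genes), and CCL2 and CSF1 were higher in S473A (3%). At any size 3 of the 10 were below S473A, against 60.7% of all genes. Both comparisons use the S473D library, and both differences from wt use the wt library.

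**Figure D2:**
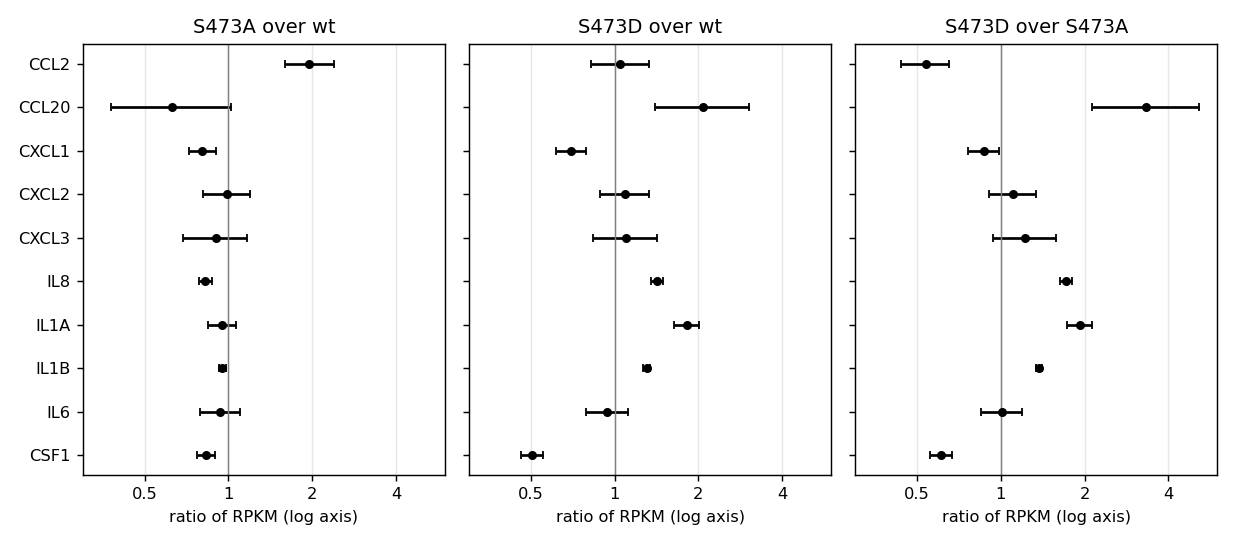
Ratio of RPKM (log axis) for each gene in the 3 comparisons, points with exact 95% intervals for counting error only, and a vertical line at a ratio of 1. CCL2 is the gene to the right of the line in S473A over wt. In S473D over wt CSF1, CXCL1 and IL6 lie to the left of the line, and the IL6 interval crosses it.

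The S473D library differed from the others by transcript length, and most of the 10 genes are short. In S473D against wt the median difference was 0.46 over 604 genes with transcripts under 1000 bases, 0.16 over 2104 of 1000 to 2000 bases, -0.09 over 4353 of 2000 to 4000 bases and -0.23 over 4248 longer ones. In S473A against wt these medians lay between -0.0012 and 0.0017. The 10 transcripts range from 741 bases (CCL2) to 4210 (CSF1), and 8 of them are under 2000 bases. Smooth trends on length and GC content came to 0.82 for CCL2, 0.91 for CCL20, between 0.33 and 0.63 for the CXCL genes, IL8, IL6, IL1A and IL1B, and -0.24 for CSF1. With these trends removed, 4 of the 10 were at least 1.5-fold below wt in S473D (CXCL1, CCL2, CSF1 and IL6) and 0 above it, beside 5.09% of all genes with a matched transcript. The median of the 10 then was -0.40, against -0.10 for all genes. The differences of the 10 genes between S473D and wt are given both ways below. The trends were taken about the median of all genes. They also include GC content, for which no classes are shown, so they need not match the length medians. The part of length or GC content in the differences was not tested.

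**Figure D3:**
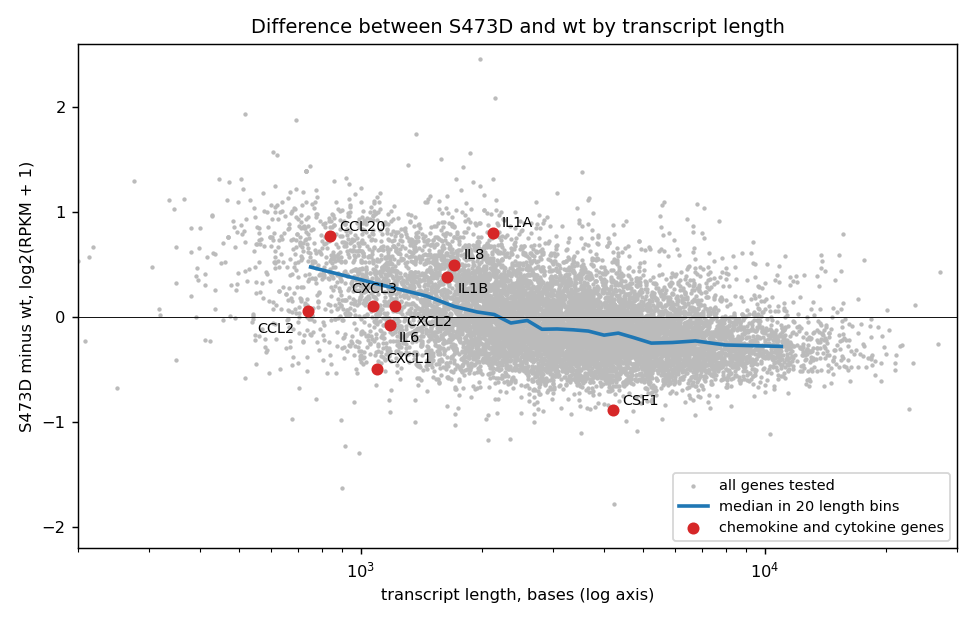
Difference S473D minus wt on the log2(RPKM + 1) scale against transcript length (log axis) for all genes with a matched transcript (grey), with the median in 20 length bins (line) and the 10 genes (labelled). Short transcripts lie above long ones. CCL2, CXCL1, IL6 and CSF1 sit below the line at their length, while CCL20, IL8, IL1A and IL1B sit above it.

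**Figure D4:**
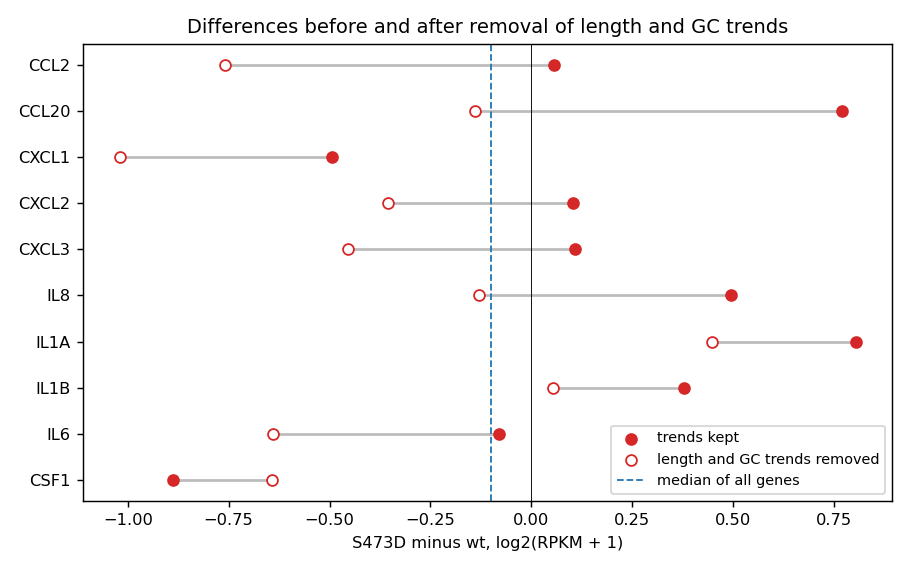
Difference S473D minus wt of each gene with the trends on length and GC content kept (filled) and removed (open), on the log2(RPKM + 1) scale, with the median of all genes dashed. CCL20 moves from 0.77 to -0.14 and IL1A from 0.80 to 0.45, and CSF1 is the gene that moves upward.

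The CC chemokine gene CCL2, whose product attracts monocytes through the receptor CCR2, was highest in S473A. It stood at 7.84, 15.3 and 8.20 RPKM in wt, S473A and S473D, from an estimated 148, 330 and 144 reads. S473A was apart from the other libraries, which were close to each other. The ratio of S473A to wt was 1.95 (interval 1.60 to 2.38), at percentile 99.97 of all genes by difference, and S473A exceeded S473D by 1.86-fold (interval 1.53 to 2.29). The ratio of S473D to wt was 1.05 (interval 0.825 to 1.32). Removing the trends left the difference between S473A and wt at 0.89, from 0.88. That between S473D and wt went from 0.06 to -0.76, and that between S473D and S473A from -0.82 to -1.67.

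CCL20 encodes the ligand of CCR6, which draws in dendritic cells and some lymphocytes. Its levels were 1.94, 1.21 and 4.01 RPKM in wt, S473A and S473D, from about 42, 30 and 80 reads, the fewest of the 10. The order was S473A, wt, S473D. S473D was 2.07-fold above wt (interval 1.39 to 3.05) and 3.32-fold above S473A (interval 2.13 to 5.16), the latter the only member difference of at least 2-fold on the log2(RPKM + 1) scale (1.18, beside 1.13% of all genes). The ratio of S473A to wt was 0.625 with an interval of 0.378 to 1.02 that includes 1. With the trends removed the difference between S473D and wt was -0.14 instead of 0.77, and that between S473D and S473A was 0.25. CCL2 and CCL20 thus differed in which library was highest, and the ratio of CCL2 to CCL20 was 4.04 in wt, 12.6 in S473A and 2.04 in S473D.

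CXCL1, CXCL2, CXCL3 and IL8 encode chemokines with the ELR motif, which recruit neutrophils and promote blood vessel growth through CXCR2. IL8 was the most abundant of the 4, at 60.8, 50.3 and 86.2 RPKM in wt, S473A and S473D. Its libraries were in the order S473A, wt, S473D, with counting intervals that excluded 1 in every comparison. S473D was 1.42-fold above wt (interval 1.35 to 1.49) and 1.71-fold above S473A (interval 1.63 to 1.80), and wt was 1.21-fold above S473A (interval 1.14 to 1.28). The difference between S473D and wt was 0.50, or -0.13 with the trends removed, and that between S473D and S473A was 0.77, or 0.14.

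CXCL1 had another order, with wt highest. It stood at 23.7, 19.1 and 16.5 RPKM in wt, S473A and S473D. The level in wt was 1.24-fold that in S473A (interval 1.11 to 1.39) and 1.43-fold that in S473D (interval 1.27 to 1.62). S473A and S473D were closer, with a ratio of 1.15 (interval 1.02 to 1.31). Removing the trends took the difference between S473D and wt from -0.49 to -1.02, the lowest of the 10.

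CXCL2 and CXCL3, both close relatives of CXCL1, were nearly level. CXCL2 was at 6.54, 6.44 and 7.09 RPKM in wt, S473A and S473D, and CXCL3 at 4.23, 3.80 and 4.63. All 6 counting intervals for these genes included 1. For S473D against wt the ratio of CXCL2 was 1.09 (interval 0.889 to 1.32) and that of CXCL3 1.10 (interval 0.839 to 1.42). These differences, without the trends, went from 0.10 to -0.35 and from 0.11 to -0.45.

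The CXCL1, CXCL2 and CXCL3 transcripts are alike in length (1097, 1218 and 1075 bases) and GC content (45.6%, 46.0% and 44.7%), so their ratios within a library are little touched by either trend. CXCL1 was 3.62 times CXCL2 in wt, 2.96 times in S473A and 2.33 times in S473D. The ratio in wt was 1.55-fold that in S473D (interval 1.23 to 1.96). The same comparison for CXCL1 over CXCL3 gave 1.57-fold (interval 1.17 to 2.10), while CXCL2 over CXCL3 gave 1.01-fold (interval 0.721 to 1.41). CXCL1 was thus lower relative to both relatives in S473D than in wt beyond counting error. CXCL1, CXCL2 and CXCL3 share short stretches of sequence. Of 1048 windows of 50 bases in the CXCL1 transcript, 60 occur in CXCL2 and 6 in CXCL3, and 54 of the 1169 CXCL2 windows occur in CXCL3. How the authors counted reads from such stretches is not given in the sources used here. Of 45 pairs among the 10 transcripts, only these 3 share a window.

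IL8 made up 63.8%, 63.2% and 75.3% of the summed RPKM of CXCL1, CXCL2, CXCL3 and IL8 (wt, S473A, S473D). The sum was 95.3, 79.6 and 115 RPKM in wt, S473A and S473D, or 0.0288%, 0.0241% and 0.0291% of the RPKM of all genes. The share of CXCL1 was 24.9%, 23.9% and 14.4%. The ratio of IL8 to CXCL1 was 2.57 in wt, 2.64 in S473A and 5.21 in S473D, which is 2.03-fold above wt (interval 1.78 to 2.32). IL8 has a lower GC content (33.4%) and a longer transcript (1705 bases) than CXCL1. With the trends removed the differences between S473D and wt were -0.13 for IL8 and -1.02 for CXCL1, so the genes were nearly as far apart as before.

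**Figure D5:**
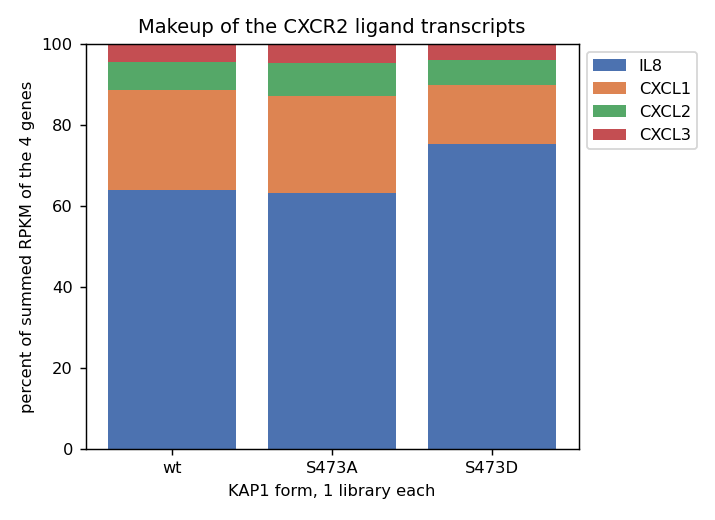
Percent of the summed RPKM of CXCL1, CXCL2, CXCL3 and IL8 taken by each gene in the wt, S473A and S473D libraries, 1 bar per library. The IL8 share is 63.8% (wt), 63.2% (S473A) and 75.3% (S473D), and that of CXCL1 is smallest in S473D.

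IL1A and IL1B encode the agonists of the IL-1 receptor, of which IL-1 beta is made as an inactive precursor and IL-1 alpha is active without cleavage. They are close neighbours on chromosome 2. IL1B was at 218, 207 and 283 RPKM in wt, S473A and S473D, above at least 98.2% of all genes tested in each library. S473D was 1.30-fold above wt (interval 1.27 to 1.34) and 1.37-fold above S473A (interval 1.33 to 1.41). The ratio of S473A to wt was 0.951 (interval 0.924 to 0.978), a small step that counting error does not cover. The difference between S473D and wt was 0.38, or 0.05 with the trends removed.

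IL1A was at 10.6, 10.1 and 19.3 RPKM in wt, S473A and S473D. S473D stood apart, and the ratio of S473A to wt was 0.946 with an interval of 0.844 to 1.06. S473D was 1.82-fold above wt (interval 1.64 to 2.02) and 1.92-fold above S473A (interval 1.74 to 2.13). The difference between S473D and wt was 0.80 on the log2(RPKM + 1) scale, or 0.45 with the trends removed, which is below the 1.5-fold size. By ratio of RPKM, CCL20 (2.07) stood above IL1A (1.82). IL1B was 20.5 times IL1A in wt, 20.6 times in S473A and 14.7 times in S473D. The ratio of IL1A to IL1B in S473D was 1.39-fold that in wt (interval 1.25 to 1.55), and between S473A and wt it differed by a factor of 0.995 (interval 0.884 to 1.12). Their removed trends were 0.36 and 0.33.

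IL6, whose product acts through gp130 and STAT3, was the most even of the 10. It stood at 9.46, 8.82 and 8.90 RPKM in wt, S473A and S473D. The ratio to wt was 0.932 for S473A (interval 0.791 to 1.10) and 0.941 for S473D (interval 0.789 to 1.12), so differences within those bounds were not detectable at this depth. With the trends removed the difference between S473D and wt was -0.64 in place of -0.08.

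CSF1, the gene of the growth factor that macrophages need for survival, was lowest in S473D. It was at 13.4, 11.1 and 6.76 RPKM in wt, S473A and S473D. All 3 libraries were apart beyond counting error. The level in wt was 1.98-fold that in S473D (interval 1.80 to 2.17) and 1.20-fold that in S473A (interval 1.12 to 1.30), and the ratio of S473D to S473A was 0.610 (interval 0.555 to 0.669). The difference between S473D and wt, at percentile 0.24 of all genes, went from -0.89 to -0.64 with the trends removed. Between S473D and S473A it went from -0.64 to -0.39. At 4210 bases and 59.5% GC, its transcript was the longest and the richest in GC of the 10.

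Receptors for the leukocyte chemokines were near the limit of detection. CXCR2 was between 0.016 and 0.029 RPKM, CCR6 between 0.032 and 0.060, and CCR2 was listed at 0 in wt and S473D and was at 0.041 RPKM in S473A, about 3 reads. CXCR1 was looked for but was not found by that symbol among the entries kept, and no value is given for CCR4 or DARC. CSF1R, the receptor of CSF1, was at 0.146, 0.179 and 0.230 RPKM in wt, S473A and S473D. Receptors for IL-1 and IL-6 were better covered. IL1RAP, the shared chain of the IL-1 receptor, stood between 13.2 and 15.2 RPKM and IL1R1 between 0.772 and 1.07, while the antagonist gene IL1RN reached at most 0.022. IL6ST, which encodes gp130, was between 26.9 and 31.5 RPKM. IL6R was at 3.76, 4.28 and 2.34 RPKM in wt, S473A and S473D, with S473A exceeding S473D by 1.83-fold (interval 1.60 to 2.08). Of the 3 genes on this list that passed the minimum mean, IL6R was 1.5-fold apart between S473D and S473A, beside 9.85% of all genes, and 0 were in the other comparisons. The IL6R difference between S473D and S473A was -0.66, or -0.40 with the trends removed.

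Of 32 other chemokine genes on the list, 14 were in the table, and 0 of these reached a mean of 1 RPKM. Their summed level was 3.20, 2.44 and 2.78 RPKM in wt, S473A and S473D. The interferon-induced CXCL10 was at 0.669, 0.195 and 0.514 RPKM, from 20, 7 and 14 reads. Other secreted cytokine genes were better represented, with 14 of 34 past the minimum mean. Of these 14, 1 was 1.5-fold apart between S473A and wt, beside 0.242% of all genes, and 3 between S473D and wt, beside 10.1%. LTB, which encodes lymphotoxin beta, was at 3.92, 1.72 and 0.588 RPKM in wt, S473A and S473D, so that wt was 2.29-fold above S473A (interval 1.58 to 3.35) and 6.67-fold above S473D (interval 3.58 to 12.6). Its difference between S473D and wt was -1.63, or -2.02 with the trends removed. IL18, an IL-1 family cytokine gene, was at 4.21, 3.69 and 8.69 RPKM (log2 difference between S473D and wt 0.89, or 0.31 with the trends removed). MIF stood at 427, 433 and 665 RPKM (0.64, or 0.30). The median of the 14 was 0.03 between S473A and wt and -0.17 between S473D and wt.

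Genes of IL-1 maturation and release included 12 past the minimum mean, 3 of them 1.5-fold higher in S473D than in wt, beside 6.82% of all genes. These were CASP4 (55.8, 56.6 and 87.1 RPKM in wt, S473A and S473D), CARD16 (0.856, 0.866 and 2.79) and S100A13 (73.3, 74.4 and 112), of which S100A13 takes part in the export of IL-1 alpha. Their trend-removed differences between S473D and wt were 0.45, 0.24 and 0.05. CASP1, the enzyme that cleaves the IL-1 beta precursor, was low at 1.16, 0.958 and 1.55 RPKM, against 218 RPKM of IL1B in wt. AIM2, a DNA sensor gene, was at 2.48, 1.67 and 3.79 RPKM. It was 1.5-fold apart between S473D and S473A (0.84, or 0.37 with the trends removed), beside 9.85% of all genes. Among 14 genes of IL-1 and Toll-like receptor signalling only LY96 was 1.5-fold apart between S473D and wt, beside 10.1% of all genes (1.57, or 0.50 with the trends removed). The IL-1 receptor kinase gene IRAK1 was at 78.4, 82.1 and 56.7 RPKM.

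Genes on 3 lists, of transcription factors, of AU-rich messenger RNA decay or stability and of IL-6 signalling, were mostly below wt in S473D. Whether they act on the 10 genes in this line was not tested. Of 19 transcription factor genes past the minimum mean, 16 were lower in S473D (median -0.35, against -0.10 for all genes, of which 60.7% were lower), and BCL3 and FOSL2 were 1.5-fold lower, beside 3.23% of all genes. BCL3, an IkB family protein gene, was at 7.47, 7.31 and 3.31 RPKM in wt, S473A and S473D (-0.98, or -0.92 with the trends removed), and the AP-1 gene FOSL2 at 40.4, 38.4 and 20.6 (-0.94, or -0.64). JUN was at 98.2, 100.1 and 65.9 RPKM. It was 1.5-fold apart only between S473D and S473A (-0.60, or -0.42 with the trends removed), beside 9.85% of all genes. The NF-kB subunit gene RELA was at 39.5, 38.0 and 29.6 RPKM. Of 16 genes acting on the decay or stability of AU-rich messenger RNAs, 13 were lower in S473D (median -0.30), beside 60.7% of all genes. In this list 0 were 1.5-fold apart between S473D and wt, beside 10.1% of all genes, with HNRNPD at -0.55 and ZFP36L1 at -0.52. All 10 tested genes of IL-6 signalling were lower (median -0.29), beside 60.7% of all genes, STAT3 at -0.53 among them. With the trends removed these 3 medians were -0.29, -0.24 and -0.23, against -0.10 for all genes. Centred on the median of all genes as well, they were -0.19, -0.14 and -0.13. In S473A against wt the 3 lists had medians between -0.01 and 0.01.

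Neighbouring genes were at low levels around the CXCL cluster. Of 14 genes of that stretch of chromosome 4 in the table, CXCL1, CXCL2, CXCL3, IL8 and MTHFD2L passed the minimum mean. MTHFD2L stood at 1.63 and 1.83 RPKM in wt and S473A and was 0.19 higher in S473D than in wt on the log2(RPKM + 1) scale, and CXCL5, which lies among the 4 ligand genes, reached at most 0.069 RPKM. Of 14 tested genes around IL1A and IL1B on chromosome 2, a list that holds IL1A itself, 1 was 1.5-fold apart between S473D and wt. This was IL1A, and the share was 7.14%, beside 10.1% of all genes. In the same stretch CKAP2L had a difference of -0.42 between S473D and wt and SLC20A1 one of -0.40, against 0.80 for IL1A and 0.38 for IL1B.

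Genes with the most similar pair of differences from wt were looked for among the 8187 genes averaging 5 RPKM or more, by Euclidean distance over the differences of S473A and of S473D from wt. CCL2 had none within 0.1, and the nearest, LOC642423, was at a distance of 0.29. CSF1 had 2 within 0.1, ZNF385A and ITPRIPL2, and CCL20 had 1, BBIP1. CXCL1 had 8, with EPAS1, IL7R and TPT1-AS1 the nearest, and IL8 had 14, led by ISCA2, GLRX and MTHFS. IL1A had 119, IL1B 413, IL6 659, CXCL3 325 and CXCL2 879. Differences far from those of most genes have few others near them. CCL2, CCL20, CXCL1, CSF1 and IL1A had been chosen with these differences in view, so the counts are a description and do not mark a gene as distinct. Counting error, widest for CCL20, was not taken into the distance.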

How the data were processed

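The submitters' processing notes name Bowtie, Partek and the hg19 build. Versions, annotation and counting rule were not given in the sources used here. Each deposited value is the log2 of an RPKM to which 0.1 was added, read from the lowest value of -3.32, and the authors' RPKM values were recovered by undoing both steps. After removal of 27 entries with date-like or repeated symbols, a minimum mean of 1 RPKM was required, 169 short RNAs were left out, and 11579 genes remained. Depth was estimated from the steps between low values and from GENCODE release 29 transcript lengths, with 47.3% to 48.9% of low values within 0.05 of a whole read. No count model was fitted. Counting intervals were computed with SciPy 1.17.1, and trends were removed by lowess (fraction 0.2, 2 rounds, statsmodels 0.14.6) over the 11309 genes with a matched transcript (97.7%), which kept the overall median. The interval, trend and scaling steps were tested on simulated data that held counting error and a length trend. The simulation held no GC trend, so removal of one was not tested. Groups came from the sample titles.

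Members, gene lists and tests were chosen with earlier results of these data known. The text names TRIM28, all members and, from each list, genes 1.5-fold apart, the most extreme or highest genes, 6 receptor genes, and up to 3 nearest genes per member. Genes named as examples without passing that size were chosen after their values were seen. The alternatives tried were a pseudocount of 0.1 or 0.5, a minimum mean of 5 RPKM or none, median centring, a trimmed mean of log ratios, trend removal and a fold of 2.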

Additional observations from a re-analysis of the deposited data

How the results depend on the processing

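The number of genes at least 1.5-fold apart between S473A and wt was 2 with a pseudocount of 0.1, where CCL20 joined CCL2, 0 at a fold of 2, and 1 (CCL2) under the other alternatives. Between S473D and wt the count of 3 became 0 at a fold of 2. With the trends on length and GC content removed it was 4 (5.09% of all genes), with 1 gene, CSF1, shared with the count of 3, and with centring added it was 2 (4.89%), with 0 shared. Between S473D and S473A the count of 5 became 1 at a fold of 2, 2 with the trends removed (5.09%) and 3 when they were removed and the differences centred (4.81%), an alternative added after the data were seen. For CCL20 the difference between S473D and wt, 0.77 on the log2(RPKM + 1) scale, turned to -0.14 with the trends removed and to -0.038 when centred as well. The cause was not tested. Centring on the median or trimmed mean scaling brought IL8 past 1.5-fold between S473D and wt (count 4) and ended the CSF1 call between S473D and S473A (-0.54 under both, count 4). A minimum mean of 5 RPKM, which CCL20 and CXCL3 do not reach, gave counts of 2 and 4 among the 8 members left. The shares of all genes that reach it were 12.2% and 11.5%. Of 30 member differences, 8 changed sign with the trends removed, 1 with centring or with scaling, and 0 with another pseudocount. No paired analysis was possible because each group has 1 library. CCL20, with about 30 to 80 reads, has the widest counting intervals, and no alternative bears on the spread between cultures.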
